A study of Mus musculus with 6 samples.

Results

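The dystrophin glycoprotein complex is described here through 8 member genes, listed with earlier results of these data known. The members are Dmd, Utrn, Dag1, Sgca, Sgcb, Sgcd, Dtna and Sspn. They are 8 of the 39059 genes in the count files, matched by Ensembl identifier to mouse symbols, and 8 of 8 passed the filter on low counts that left 14099 genes to test. The libraries came from satellite cells, which are the resident stem cells of muscle fibres. Flow cytometry had isolated them out of hind limb muscle of mice on the C57BL/6J background, all at postnatal day 19. The mutant group, labelled Lmna HOM, held 3 libraries of genotype Lmna Δ8-11 -/-, with both copies of Lmna, which encodes the A-type nuclear lamins, carrying the deletion. The group labelled Lmna WT held 3 libraries of genotype Lmna Δ8-11 +/+. The labels give 3 mice per condition without tying a library to an animal, and every p-value therefore rests on the spread between these libraries.

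In muscle, the complex spans the plasma membrane and ties the actin cytoskeleton to the basement membrane. Dystrophin binds actin and β-dystroglycan, α-dystroglycan binds laminin through its sugar chains, the sarcoglycans and sarcospan stabilise the assembly in the membrane, and dystrobrevins and syntrophins bind signalling proteins at its inner face. Utrophin is the close relative of dystrophin that takes its place at many membranes outside the muscle fibre. Mutations of dystrophin, the sarcoglycans and the enzymes that glycosylate dystroglycan cause muscular dystrophies. In satellite cells of the mouse, dystrophin is also known to bind the polarity kinase Mark2 and to take part in asymmetric division.

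Gene reads per library ran from 7234298 to 9552751 in Lmna HOM and from 6613636 to 8426578 in Lmna WT. Lmna averaged 421 ± 40.0 CPM (read counts scaled for sequencing depth with TMM-normalised library totals) in Lmna HOM and 946 ± 108 CPM in Lmna WT (SD, n = 3 each), and every mutant library lay below every wild-type library. Reads from undeleted exons count towards it, which makes it a partial check of the labels. Of the markers of satellite cells, 6 of 9 were lower and 0 higher in Lmna HOM, and their summed level was 976 to 1735 CPM in Lmna HOM and 1969.5 to 2188 CPM in Lmna WT. Markers of other cell types were present in both genotypes, with summed levels of 11566 to 12346 CPM in Lmna HOM and 11029 to 15841 CPM in Lmna WT for smooth muscle and pericytes (2 of 8 higher and 1 lower), and of 3023 to 3967 CPM in Lmna HOM and 3607 to 4570 CPM in Lmna WT for Schwann cells. The myofibre list summed to 43.1 to 73.2 CPM in Lmna HOM and 68.6 to 113 CPM in Lmna WT. Adipocyte markers summed to 384 to 726 CPM in Lmna HOM and 181 to 293 CPM in Lmna WT, with 3 of 3 tested higher. In Lmna WT that sum was almost all Fabp4, at 238 ± 56.6 CPM. Over the Lmna WT libraries Adipoq had 8 reads, Plin1 4, Cidec 1 and Retn 1, against 410, 17, 728 and 86 in Lmna HOM. No marker of these 5 lists was at 0 in all 6 libraries. In sorted bulk RNA, fewer cells of a type and less RNA per cell cannot be told apart, which applies to each result that follows.

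Dag1 and Sgca were the members that passed the test, and both fell in Lmna HOM. The fold changes were log2 -0.78 (SE 0.15) for Dag1 and -1.33 (SE 0.29) for Sgca. Dmd was lower and Utrn higher in every mutant library than in every wild-type library, but neither passed the test. By edgeR's quasi-likelihood test with Benjamini-Hochberg adjustment over 14099 genes, 2 of 8 members were lower and 0 higher, against 11.5% of all tested genes lower and 9.67% higher. The share of members called, 25%, stands near the 21.1% called over all tested genes. Values of the genotypes did not overlap for 6 of 8 members, with Lmna HOM below for 4 and above for 2. They did not overlap for 40.7% of all tested genes, with Lmna HOM below for 20.6% and above for 20.2%. Before adjustment 7 of 8 members had a p under 0.05, where 35.9% of all tested genes did. The members' median log2 fold change was -0.37, and that of all tested genes was -0.004.

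Set on a common scale per kilobase of merged exons, the members ran over more than an order of magnitude, with Dag1, Utrn and Dmd at the top and Sgcd and Dtna at the bottom. In Lmna HOM, Utrn stood first at 79.2 ± 5.98 CPM per kilobase, followed by Dag1 at 54.3 ± 10.2 and Dmd at 26.4 ± 3.32 (SD, n = 3). Among Lmna WT libraries Dag1 stood first at 93.5 ± 4.61 CPM per kilobase, followed by Utrn at 57.8 ± 9.04 and Dmd at 34.0 ± 2.99. The library ranges of these 3 genes did not overlap each other in either genotype, so the order of Utrn and Dag1 differed between genotypes. Sgcb and Sspn had overlapping ranges in Lmna HOM, at 11.8 ± 1.11 and 10.1 ± 2.91 CPM per kilobase. Sspn at 14.4 ± 0.85, Sgca at 12.9 ± 1.30 and Sgcb at 12.9 ± 1.15 CPM per kilobase had library ranges in Lmna WT that all overlapped each other. Sgca was at 5.05 ± 2.55 CPM per kilobase in Lmna HOM, below Sgcb. At the low end, Dtna was at 3.10 ± 0.53 and Sgcd at 2.75 ± 0.36 CPM per kilobase in Lmna HOM, and Sgcd at 3.60 ± 0.38 and Dtna at 2.34 ± 0.27 CPM per kilobase in Lmna WT. These lengths merge the exons of all annotated transcripts, so they understate genes with many unused exons.

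**Figure D1:**
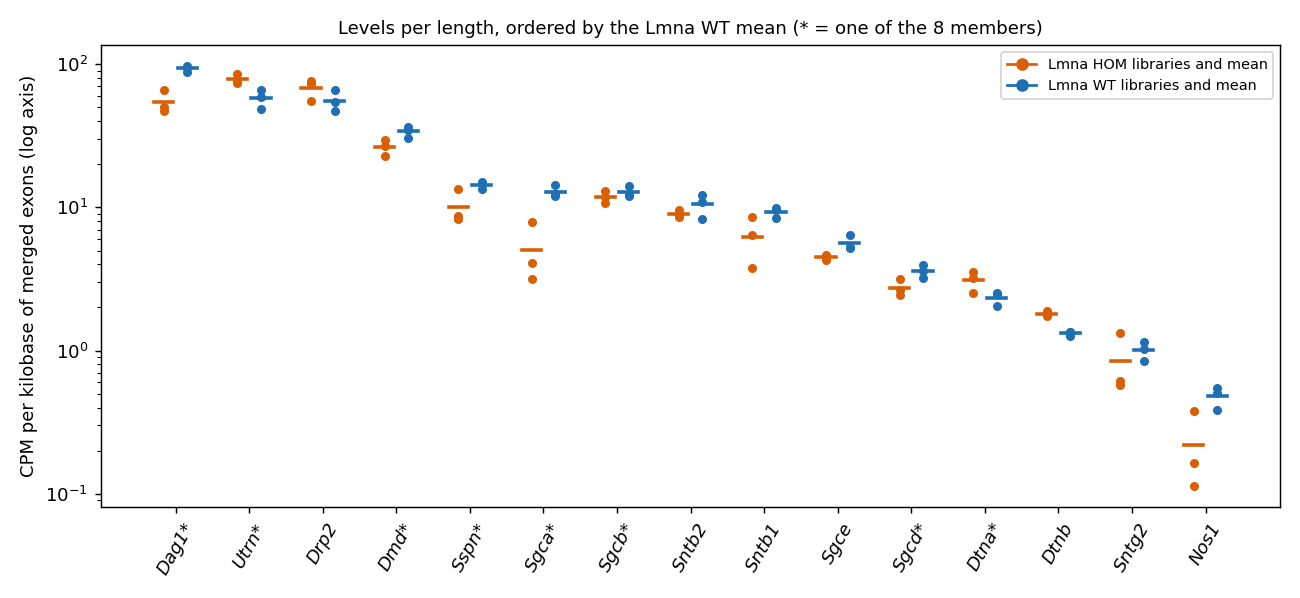
CPM per kilobase of merged exons on a log axis, with 1 point per library and a bar at the mean of 3 libraries, for the 8 members (marked with an asterisk) and 7 other tested genes of the complex and its family, ordered by the Lmna WT mean. Dag1 leads in Lmna WT at 93.5 CPM per kilobase and Utrn leads in Lmna HOM at 79.2 CPM per kilobase, and Sgca shows the widest gap between the genotypes among the members.

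Dag1 encodes dystroglycan, a single precursor that is cleaved into the laminin-binding α and the membrane-spanning β subunit. It lies on chromosome 9, positions 108204634 to 108263958, minus strand (GRCm38). The 250 bases before its annotated start, and below those before Sgca and Dmd, are shown because the first pair are the members that fell and Dmd gives the complex its name. They are from RefSeq on GRCm38.p6, where 7 of 8 members had an entry, and Dtna had none. Each is read 5′ to 3′ on the gene's strand, with matches to CANNTG, the E-box bound by myogenic factors such as MyoD and myogenin, in capitals.
Dag1 promoter, chr9:108263959-108264208, minus strand: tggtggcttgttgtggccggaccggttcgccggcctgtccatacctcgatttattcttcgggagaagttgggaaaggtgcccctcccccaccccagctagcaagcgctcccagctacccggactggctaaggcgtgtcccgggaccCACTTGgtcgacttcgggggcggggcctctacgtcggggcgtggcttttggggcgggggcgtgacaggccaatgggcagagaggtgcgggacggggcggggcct
Sgca promoter, chr11:94976328-94976577, minus strand: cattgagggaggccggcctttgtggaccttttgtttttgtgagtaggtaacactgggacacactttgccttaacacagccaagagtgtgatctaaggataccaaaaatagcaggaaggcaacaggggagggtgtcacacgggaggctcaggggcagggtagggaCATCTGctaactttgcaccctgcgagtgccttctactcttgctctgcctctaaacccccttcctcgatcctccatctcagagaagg
Dmd promoter, chrX:82948620-82948869, plus strand: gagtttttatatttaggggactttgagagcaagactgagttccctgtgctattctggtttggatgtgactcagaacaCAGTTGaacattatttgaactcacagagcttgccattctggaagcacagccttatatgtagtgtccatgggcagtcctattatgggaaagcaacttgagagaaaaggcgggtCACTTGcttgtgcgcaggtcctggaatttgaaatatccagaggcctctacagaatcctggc
The Dag1 window held 1 E-box, 104 bases before the start, the Sgca window held 1, 86 bases before the start, and the Dmd window held 2, at 173 and 61 bases before it. Before Utrn, whose values were higher in Lmna HOM, E-boxes lay 177, 160, 139, 133, 125, 98 and 96 bases before the start. Before Sgcd they lay 244 and 86 bases before it. CANNTG reads the same on both strands, and 66% of 27025 promoters of that length held at least 1, with a median of 1. The GC box GGGCGG, searched on both strands, occurred 3 times before Dag1 and 0 times before Sgca and Dmd, and 32.9% of the promoters held it. These matches are descriptions of the sequence and not sites shown to be in use.

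In Lmna HOM libraries Dag1 was at 317, 419 and 298 CPM in replicates 1, 2 and 3, against 597, 622 and 563 CPM in Lmna WT replicates 1, 2 and 3. The highest mutant library, replicate 2, stayed well below the lowest wild-type library. Dag1 averaged 345 ± 65.1 CPM in Lmna HOM and 594 ± 29.3 CPM in Lmna WT (SD, n = 3 each), a level 1.72-fold higher in Lmna WT. Its log2 fold change was -0.78 (SE 0.15, 95% interval -1.12 to -0.45, adjusted p = 0.0068 by edgeR's quasi-likelihood test). The call held in 13 of 13 alternatives, with an adjusted p of at most 0.0350. Set against a neighbour in the complex, Dag1 had 6.68, 7.97 and 6.84 reads per Sgcb read in Lmna HOM replicates 1, 2 and 3, and 10.4, 12.5 and 11.5 in Lmna WT replicates 1, 2 and 3. Per read of Pax7, a transcription factor marking satellite cells, Dag1 had 13.8, 8.01 and 15.3 reads in Lmna HOM replicates 1, 2 and 3. In Lmna WT replicates 1, 2 and 3 it had 6.87, 9.38 and 7.52. The ranges overlapped through Lmna HOM replicate 2, and the other mutant libraries lay above every wild-type library.

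The sarcoglycans form a ring of transmembrane proteins beside dystroglycan, and 1 of the 3 sarcoglycan genes among the members passed the test. Sgca, for the α subunit, which is largely restricted to striated muscle, fell. It lies on chromosome 11, positions 94962791 to 94976327, minus strand. Its reads numbered 39, 130 and 54 in Lmna HOM replicates 1, 2 and 3, and 186, 157 and 163 in Lmna WT replicates 1, 2 and 3. On the CPM scale this was 5.45, 13.8 and 7.07 in Lmna HOM and 21.5, 25.0 and 20.7 in Lmna WT. Mutant replicate 2 stood highest of its group and still below each wild-type library. Sgca averaged 8.77 ± 4.42 CPM in Lmna HOM and 22.4 ± 2.26 CPM in Lmna WT (SD, n = 3 each), a level 2.51-fold higher in Lmna WT. Its log2 fold change of -1.33 (SE 0.29, 95% interval -1.96 to -0.69, adjusted p = 0.0106 by edgeR's quasi-likelihood test) was called in 13 of 13 alternatives. Without Lmna HOM replicate 2 the log2 fold change was -1.83.

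The satellite cell markers Pax7 and Cdh15 and the differentiation factor Myog were, like Sgca, lower in Lmna HOM, but by different amounts. Of the 9 listed satellite cell markers, 6 were called lower, and Chodl and Sdc4 overlapped between genotypes. Pax7 averaged 31.7 ± 18.0 CPM in Lmna HOM and 76.0 ± 10.4 CPM in Lmna WT (SD, n = 3 each), and in the mutant group it too was highest in replicate 2, at 52.4 CPM. The call of Pax7 missed the threshold in 3 of 13 alternatives, while those of Cdh15 and Myog held in 13 of 13. Sgca had 0.236, 0.263 and 0.362 reads per Pax7 read in Lmna HOM replicates 1, 2 and 3, and 0.248, 0.376 and 0.276 in Lmna WT replicates 1, 2 and 3, so that this ratio overlapped between genotypes. Relative to Cdh15, the M-cadherin of satellite cells, the ratio was 0.562 to 1.15 in Lmna HOM and 0.267 to 0.400 in Lmna WT. Cdh15 itself was at 12.7 ± 8.07 CPM in Lmna HOM and 70.9 ± 16.7 CPM in Lmna WT. Myog, the factor of terminal differentiation, was at 7.26 ± 9.79 CPM in Lmna HOM and 79.2 ± 28.5 CPM in Lmna WT. The markers of differentiating myoblasts, of which 3 of 5 tested were lower and 0 higher, summed to 7.85 to 33.7 CPM in Lmna HOM and 86.3 to 156 CPM in Lmna WT. Per Myog read, Sgca had 4.33, 0.743 and 3.6 reads in Lmna HOM replicates 1, 2 and 3, and 0.225 to 0.447 in Lmna WT. The ratio to Pax7 therefore showed no gap between the genotypes and those to Cdh15 and Myog did, with mutant libraries above. Few reads lay under some of these ratios, with Myog at 9 and 15 in Lmna HOM replicates 1 and 3. Cdh15 had 34 reads in Lmna HOM replicate 1. The part of these markers in the Sgca and Dag1 results was not tested.

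Sgcb and Sgcd, for the β and δ subunits, which are found in smooth as well as striated muscle, did not pass the test. Sgcb was at 47.6, 52.6 and 43.6 CPM in Lmna HOM replicates 1, 2 and 3, and 57.5, 49.9 and 49.0 CPM in Lmna WT replicates 1, 2 and 3. The groups overlapped, and the log2 fold change was -0.12 (95% interval -0.39 to 0.15, adjusted p = 0.507 by edgeR's quasi-likelihood test), so a change of the size of that of Dag1 lay outside the interval. Sgcd was at 20.1, 26.0 and 22.0 CPM in Lmna HOM replicates 1, 2 and 3, and 26.6, 29.6 and 32.9 CPM in Lmna WT replicates 1, 2 and 3. All mutant libraries lay below the wild-type ones, though only narrowly. The log2 fold change, -0.38 with an SE of 0.15, did not pass (edgeR's quasi-likelihood test, adjusted p = 0.0885). Without Lmna HOM replicate 2 it passed, at -0.49 (adjusted p = 0.0362). Markers of smooth muscle and pericytes, cells that also carry Sgcb and Sgcd, moved in both directions, with 2 of 8 higher and 1 lower and a summed level of 11566 to 12346 CPM in Lmna HOM and 11029 to 15841 CPM in Lmna WT. Their part in the Sgcd values was not tested.

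Sspn encodes sarcospan, a small protein that crosses the membrane several times and binds the sarcoglycans. It was at 43.2, 67.3 and 41.2 CPM in Lmna HOM replicates 1, 2 and 3, and 74.1, 74.7 and 67.0 CPM in Lmna WT replicates 1, 2 and 3. Mutant replicate 2 reached the wild-type range and the other mutant libraries lay well below it. The log2 fold change was -0.50 (SE 0.18, adjusted p = 0.0685) in all libraries. It passed at -0.77 (adjusted p = 0.00085) without Lmna HOM replicate 2. Sspn shares 69 bases of exon with the antisense gene Sspnos. How reads there were assigned is not known, since no source used here states whether strand was used in counting.

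**Figure D2:**
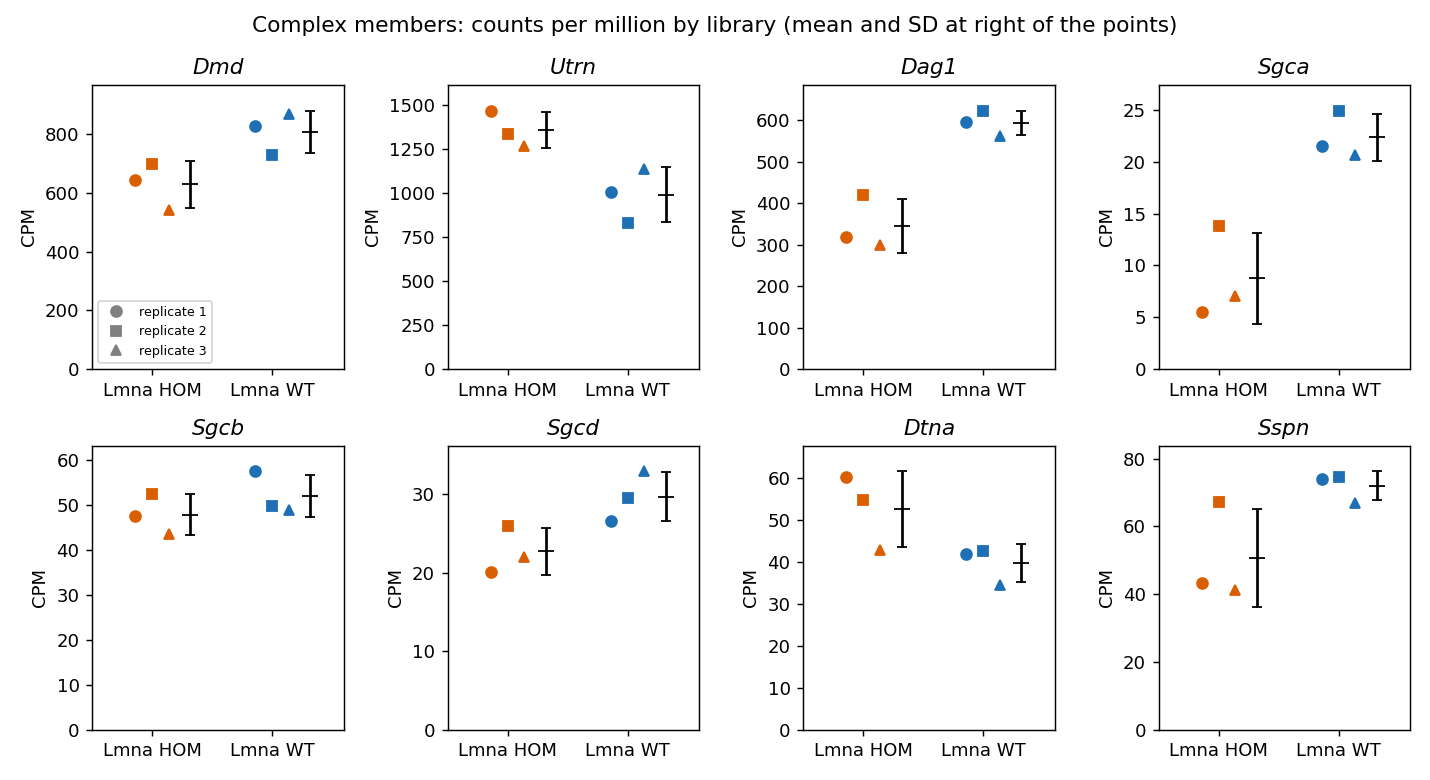
CPM of each member in each library, with Lmna HOM at the left and Lmna WT at the right of each panel, marker shapes for replicate numbers, and the mean with SD of 3 libraries beside the points. Relative to their levels, Dag1 and Sgca have the widest gaps between the groups, Sgcb and Sspn overlap, and Utrn and Dtna are the members with mutant libraries above wild-type ones.

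Dmd encodes dystrophin, and Utrn encodes utrophin. Dmd, on the X chromosome at positions 82948870 to 85206141, plus strand, was at 644, 699 and 544 CPM in Lmna HOM replicates 1, 2 and 3, and 827, 731 and 870.0 CPM in Lmna WT replicates 1, 2 and 3. Every mutant library was below every wild-type library, by a margin smaller than the spread within either group. The log2 fold change was -0.36 (SE 0.14, 95% interval -0.68 to -0.04) and did not pass (adjusted p = 0.0975 by edgeR's quasi-likelihood test). Utrn, on chromosome 10 at positions 12382188 to 12869365, minus strand, was at 1465, 1336 and 1264 CPM in Lmna HOM replicates 1, 2 and 3, and 1004, 828 and 1136 CPM in Lmna WT replicates 1, 2 and 3. Mutant libraries were again set apart, here on the higher side, and the log2 fold change of 0.45 (SE 0.16, 95% interval 0.11 to 0.80) did not pass either (adjusted p = 0.0628). With the DESeq2 Wald test both passed, at adjusted p = 0.0484 for Dmd and 0.0148 for Utrn.

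The ratio of Utrn to Dmd reads does not depend on how libraries are scaled. It was 2.27, 1.91 and 2.32 in Lmna HOM replicates 1, 2 and 3, and 1.21, 1.13 and 1.31 in Lmna WT replicates 1, 2 and 3. In each mutant library the ratio exceeded that of each wild-type library. On the log2 scale it averaged 1.11 ± 0.16 in Lmna HOM and 0.28 ± 0.10 in Lmna WT (SD, n = 3 each), a difference of 0.83, or 1.78-fold. An exact two-sided permutation test gave p = 0.1, the smallest that 3 libraries against 3 can give. The difference was 0.78 to 0.92 when each library was left out in turn. Of all reads scaled to CPM over the 8 members, Utrn made up 50.05 to 56.3% in Lmna HOM and 34.5 to 41.0% in Lmna WT, and Dag1 12.2 to 15.7% in Lmna HOM and 20.3 to 25.9% in Lmna WT. The sum over the 8 members overlapped between genotypes, at 2262 to 2669 CPM in Lmna HOM and 2402 to 2774 CPM in Lmna WT.

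Several transcripts are pooled in the Dmd count. The annotation lists 14 for Dmd, 3 of them protein-coding, and RefSeq lists 2 starts for it, of which the upstream one is shown above, while dystrophin is known to have further short forms made from internal promoters in other tissues, among them a Schwann cell form. Counts per gene cannot tell full-length from short dystrophin RNA. Because Dmd is X-linked, the libraries' sex composition was looked at through 4 Y-linked genes, whose reads numbered 4498 in Lmna HOM replicate 2, 3074 in Lmna WT replicate 2, 4831 in Lmna WT replicate 3 and at most 3 in each other library. When a term for libraries holding Y-linked reads was added, a setting chosen after seeing the data, the Dmd log2 fold change was -0.34 (adjusted p = 0.195 by edgeR's quasi-likelihood test).

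**Figure D3:**
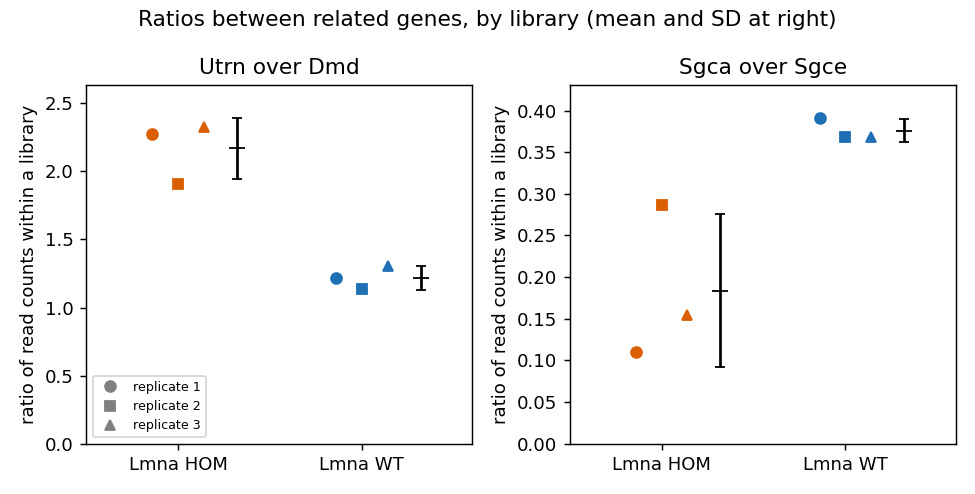
Ratios of read counts within each library for Utrn over Dmd and Sgca over Sgce, with Lmna HOM at the left and Lmna WT at the right and the mean with SD of 3 libraries beside the points. Mutant libraries sit above wild-type ones for Utrn over Dmd, at 1.91 to 2.32 against 1.13 to 1.31, and below them for Sgca over Sgce.

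Dtna encodes α-dystrobrevin, which binds dystrophin or utrophin and the syntrophins inside the membrane. It was at 60.1, 54.7 and 42.68 CPM in Lmna HOM replicates 1, 2 and 3, and 41.9, 42.45 and 34.4 CPM in Lmna WT replicates 1, 2 and 3. The lowest mutant and the highest wild-type library nearly met. Its log2 fold change was 0.41 (SE 0.15, adjusted p = 0.0804 by edgeR's quasi-likelihood test), and it passed without Lmna HOM replicate 3, at 0.54 (adjusted p = 0.0455). An exon of Dtna overlaps 90 bases of the opposite-strand gene Gm47898.

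Beyond the members, 7 further tested genes of the complex and the dystrophin family are described. They are part of the list only, so no share of called genes is given for it, and these 7 did not pass the reported test. Without a filter on low counts Sntb1 passed at -0.58 (edgeR, adjusted p = 0.0016) and Nos1 at -1.10 (adjusted p = 0.0045), with all 6 libraries. Sgce, the ε paralogue of Sgca found in many tissues, was at 47.8 ± 1.94 CPM in Lmna HOM and 59.7 ± 7.11 CPM in Lmna WT (SD, n = 3 each; log2 fold change -0.32, SE 0.12, adjusted p = 0.0841 by edgeR's quasi-likelihood test). Per Sgce read, Sgca had 0.110, 0.286 and 0.155 reads in Lmna HOM replicates 1, 2 and 3, and 0.392, 0.368 and 0.368 in Lmna WT replicates 1, 2 and 3. In this ratio the genotypes did not overlap, with Lmna HOM lower. It was chosen after the values were seen and was not tested.

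The syntrophins are adaptors that carry signalling proteins on dystrophin and dystrobrevin. Sntb1, for β1-syntrophin, was at 33.2 ± 12.9 CPM in Lmna HOM and 49.6 ± 4.15 CPM in Lmna WT and overlapped (SD, n = 3 each; log2 fold change -0.57, adjusted p = 0.115 by edgeR's quasi-likelihood test). It passed without Lmna HOM replicate 2, at -0.88 (adjusted p = 0.0065). Sntb2 was at 93.8 ± 5.66 CPM in Lmna HOM and 109 ± 21.1 CPM in Lmna WT, and Sntg2 at 2.87 ± 1.46 CPM in Lmna HOM and 3.42 ± 0.54 CPM in Lmna WT, and in both genes the groups overlapped. Dtnb, for β-dystrobrevin, stood at 17.3 ± 0.86 CPM in Lmna HOM and 12.7 ± 0.47 CPM in Lmna WT, with the groups apart (log2 fold change 0.44, adjusted p = 0.0549). Nos1, the neuronal nitric oxide synthase held at the membrane by the complex in muscle, had 63 reads in Lmna HOM and 124 in Lmna WT (log2 fold change -1.09, adjusted p = 0.0724). It passed without Lmna HOM replicate 2, at -1.79 (adjusted p = 0.0026).

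Drp2, a dystrophin-related protein known from Schwann cells, was among the most abundant of the family. It was at 623, 653 and 471 CPM in Lmna HOM replicates 1, 2 and 3, and 466, 401 and 563 CPM in Lmna WT replicates 1, 2 and 3. The groups overlapped (log2 fold change 0.29, 95% interval -0.09 to 0.67, adjusted p = 0.253 by edgeR's quasi-likelihood test). Schwann cell markers moved in both directions, with 3 of 6 higher and 2 lower. Their part in the Drp2 values was not tested. Sgcz had 0 reads in Lmna HOM and 1 in Lmna WT, Sntg1 had 3 in Lmna HOM and 3 in Lmna WT, and Dytn had 0 in all 6 libraries. A count of 0 allows up to 3 reads, or 0.318 to 0.477 CPM in a library, so no difference was detectable for these genes at this depth.

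**Figure D4:**
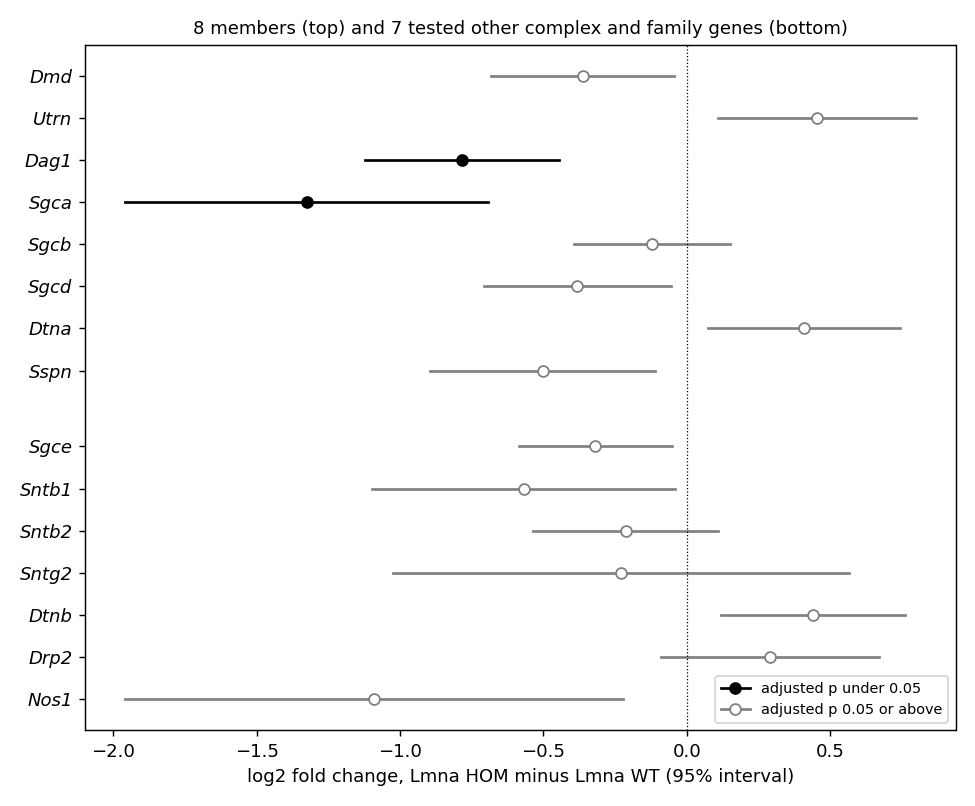
Log2 fold change, Lmna HOM minus Lmna WT, with its 95% interval for the 8 members above and 7 other tested genes of the complex and family below, filled where the adjusted p was under 0.05. Dag1 and Sgca lie to the left with filled points, and the other 13 intervals belong to genes that did not pass.

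Enzymes that build the laminin-binding sugar chain of α-dystroglycan were mostly not called. Of 18 listed, 17 were tested, of which 2 were lower and 0 higher, or 11.8% against 21.1% over all tested genes, with a median log2 fold change of -0.23. Pomk, the kinase that phosphorylates the core mannose, was at 3.97 ± 1.14 CPM in Lmna HOM and 8.71 ± 1.55 CPM in Lmna WT (SD, n = 3 each; log2 fold change -1.11, SE 0.26, adjusted p = 0.0159 by edgeR's quasi-likelihood test). It missed the threshold without Lmna WT replicate 1 (adjusted p = 0.0523) or 2 (adjusted p = 0.0570). Ispd, which makes the CDP-ribitol used in the chain, was at 8.93 ± 0.30 CPM in Lmna HOM and 14.02 ± 1.99 CPM in Lmna WT (log2 fold change -0.65, SE 0.18, adjusted p = 0.0271). Ispd missed the threshold without Lmna HOM replicate 1 (adjusted p = 0.0677) or 3 (0.0845) or Lmna WT replicate 1 (0.0883) or 2 (0.0829). With all 6 libraries it missed under the DESeq2 Wald test (adjusted p = 0.0505) and the Y-linked term (0.0599), and it missed in 7 of 13 alternatives in all. Its exons overlap those of D630036H23Rik on the other strand. Counts of lower enzymes were 1 under the DESeq2 Wald test, with the Y-linked term and without Lmna HOM replicate 1 or 3, 4 without Lmna HOM replicate 2 and 0 without Lmna WT replicate 1 or 2.

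Among extracellular ligands of dystroglycan and the laminin chains listed with them, 3 of 11 tested of 13 listed were lower and 0 higher. That was 27.3% against 21.1% over all tested genes. The median log2 fold change was -0.17. Those lower included Lamc1 and Lama2. Lamc1, the γ1 chain of most laminins, was at 668 ± 104 CPM in Lmna HOM and 1071 ± 33.0 CPM in Lmna WT (SD, n = 3 each; log2 fold change -0.68, SE 0.15, adjusted p = 0.0108 by edgeR's quasi-likelihood test, and 0.0543 without Lmna HOM replicate 3). Lama2, the laminin α2 chain of the muscle basement membrane, was at 301 ± 61.2 CPM in Lmna HOM and 479 ± 37.6 CPM in Lmna WT (log2 fold change -0.67, SE 0.16, adjusted p = 0.0155). It missed the threshold without Lmna HOM replicate 1 (adjusted p = 0.0634) or 3 (0.0666) or Lmna WT replicate 3 (0.0507). On this list, lower genes numbered 1 without Lmna HOM replicate 1 or Lmna WT replicate 3, and 0 without Lmna HOM replicate 3. They numbered 5 without Lmna HOM replicate 2, under the DESeq2 Wald test and without a filter on low counts.

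On the cytoplasmic side, 1 of 14 listed and tested partners was lower and 0 were higher, or 7.14% against 21.1% over all tested genes. The median log2 fold change was 0.01. That gene was Actg1, the cytoplasmic γ-actin to which dystrophin binds, at 444 ± 67.0 CPM in Lmna HOM and 677 ± 35.1 CPM in Lmna WT (SD, n = 3 each; log2 fold change -0.61, SE 0.14, adjusted p = 0.0160 by edgeR's quasi-likelihood test). Its adjusted p was 0.0639 without Lmna HOM replicate 1 and 0.0501 without Lmna HOM replicate 3, and the list then held 0 lower genes, while without Lmna HOM replicate 2, or without a filter on low counts, it held 2. Mark2, the polarity kinase, named for its known role, was at 31.4 ± 2.21 CPM in Lmna HOM and 29.6 ± 2.27 CPM in Lmna WT (log2 fold change 0.09, SE 0.13, adjusted p = 0.656), with overlapping groups.

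Genes of other links between membrane and matrix, and of membrane repair, moved in both directions, with 2 of 11 higher and 2 lower, or 36.4% against 21.1% over all tested genes. Itga7, the integrin α7 subunit that binds laminin beside dystroglycan, was at 300.3 ± 49.1 CPM in Lmna HOM and 447 ± 44.7 CPM in Lmna WT (SD, n = 3 each; log2 fold change -0.57, SE 0.15, adjusted p = 0.0246 by edgeR's quasi-likelihood test). It missed the threshold without Lmna HOM replicate 1 (adjusted p = 0.0901) or Lmna WT replicate 1 (0.0869) or 2 (0.0722), and 1 gene of the list was then lower. Tln2, the talin of striated muscle attachment sites, was at 51.3, 125.5 and 70.04 CPM in Lmna HOM replicates 1, 2 and 3, and 235, 206 and 225 CPM in Lmna WT replicates 1, 2 and 3 (log2 fold change -1.43, SE 0.26, adjusted p = 0.0056). As with Sgca, mutant replicate 2 was the highest of its group. Myof, or myoferlin, a ferlin of membrane repair and myoblast fusion, rose to 97.6, 110.5 and 110.4 CPM in Lmna HOM replicates 1, 2 and 3, against 56.0, 56.6 and 49.9 CPM in Lmna WT replicates 1, 2 and 3 (log2 fold change 0.97, SE 0.11, adjusted p = 0.00084). Anxa1, an annexin of membrane repair, averaged 184 ± 13.8 CPM in Lmna HOM and 122 ± 8.25 CPM in Lmna WT (log2 fold change 0.59, SE 0.11, adjusted p = 0.0070).

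Genes whose pattern over the 6 libraries was most like that of the called members were ranked by Pearson's r of log2 CPM, as a description. For Dag1 they were Atp2a2, Efnb3 and Lamc1, each with r = 0.998, and for Sgca they were Tmem246, Lum and Hs6st2, each with r = 0.997. The 6 libraries fall into 2 genotypes, and each of these genes was lower in every mutant library than in every wild-type library. Efnb3 averaged 5.50 CPM in Lmna HOM and 23.5 CPM in Lmna WT, and Hs6st2 7.53 CPM in Lmna HOM and 45.6 CPM in Lmna WT. Lum, also among the listed markers of fibro-adipogenic progenitors, averaged 10.54 CPM in Lmna HOM and 38.4 CPM in Lmna WT. Of the 6 markers on that list, 3 were lower and 1 higher, and their sum was 1149 to 1386 CPM in Lmna HOM and 1886 to 2059 CPM in Lmna WT. Their part in the Sgca values was not tested.

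Across the members, Lmna HOM replicate 2 was the highest mutant library for 6 of 8, the exceptions being Utrn and Dtna. It was also the highest mutant library for Pax7, Cdh15 and Myog. Among mutant libraries it alone held many Y-linked reads, 4498 against 1 in replicate 1 and 3 in replicate 3. Lmna WT replicates 2 and 3 held 3074 and 4831. Fits without Lmna HOM replicate 2 therefore compare mutant libraries nearly free of such reads with a wild-type group that holds them. The part of sex composition in those fits was not tested. The calls of Dag1 and Sgca did not rest on a single library, and the log2 fold changes of the 8 members kept their sign in each alternative run, as the plot of alternatives shows.

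**Figure D5:**
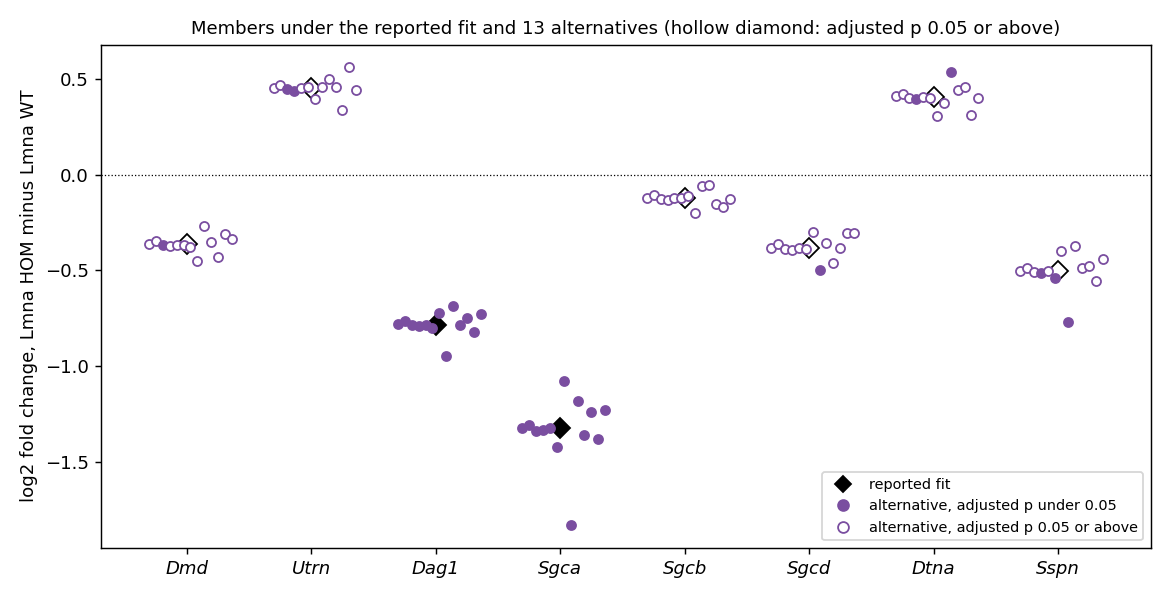
Log2 fold change of each member, Lmna HOM minus Lmna WT, in the reported fit (diamond) and under 13 alternatives (circles), filled where the adjusted p was under 0.05. Dag1 and Sgca are filled throughout, Sgcb is hollow throughout, and Dmd, Utrn, Sgcd, Dtna and Sspn pass under 1 to 3 alternatives each without changing sign.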

How the data were processed

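Total RNA of 3 Lmna HOM and 3 Lmna WT libraries was sequenced after ribosomal RNA removal with a stranded kit, per the labels' protocols. Each deposited file holds unnormalised read counts by Ensembl gene identifier. The submitters' processing notes name HTSeq 0.6.1, STAR 2.5.2b, Trimmomatic 0.32 and mm10, without roles, strand setting or annotation release. Of 39059 identifiers, 38861 matched GENCODE M21 on GRCm38, the assembly of mm10. Summary lines, 45 to 49.8% of a file's reads, were left out.

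Genes were filtered with filterByExpr (minimum count 10, minimum total 15), scaled with TMM factors and tested with edgeR 4.0.16 (R 4.3.3), quasi-likelihood without covariates, threshold 0.05 after Benjamini-Hochberg adjustment over 14099 genes. The standard error is the log2 fold change over the square root of F. Intervals are 95% and unadjusted. The script was tested on simulated data. Alternatives were DESeq2 1.42.0 size factors, gene totals, the DESeq2 Wald test, other filters, a replicate block, each library left out, and a Y-linked covariate added after seeing the data. No libraries of a group agreed within sampling noise (chi-square per gene of 8.35 to 22.5).

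The members, lists and tests were chosen with earlier results of these data known. Named genes are the members, other complex and family genes, up to 4 called genes per further list, the 3 most similar genes averaging 10 CPM or more for each called member, and Lmna. Mark2, the markers given singly and the read ratios other than that of Utrn to Dmd were chosen after values were seen. Some genes that this rule names are not reported here.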

Additional observations from a re-analysis of the deposited data

How the results depend on the processing

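Dag1 and Sgca stayed called and all 8 members kept their sign in 13 alternatives. Other members passed as follows. With the DESeq2 Wald test these were Dmd (-0.37, adjusted p = 0.0484) and Utrn (0.45, adjusted p = 0.0148), making 1 member higher. Without a filter on low counts they were Utrn (0.44), Dtna (0.40) and Sspn (-0.51), making 2 higher. Without single libraries the log2 fold change ranged from -0.45 to -0.27 for Dmd, 0.34 to 0.56 for Utrn, -0.95 to -0.69 for Dag1, -1.83 to -1.08 for Sgca, -0.20 to -0.05 for Sgcb, -0.49 to -0.30 for Sgcd, 0.31 to 0.54 for Dtna and -0.77 to -0.37 for Sspn, with 2 to 4 members lower and 0 to 1 higher. Genes called numbered 2980, against 1576 to 4002 without single libraries and 1932 with the Y-linked covariate. Among listed enzymes, ligands and partners, 0 to 4, 0 to 5 and 0 to 2 were lower over all alternatives, against 2, 3 and 1. The cause of these changes was not tested.

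Same-numbered libraries did not deviate together (r of -0.05, 0.02 and -0.10), so the numbers were not taken as pairs. With the replicate number as a block, 2437 genes were called, Sspn passed at -0.54 (adjusted p = 0.0419) and Ispd missed the threshold at -0.64 (adjusted p = 0.0533). The log2 ratio of Utrn to Dmd differed by 0.83 under the block too (exact p = 0.25, the smallest that 3 pairs allow). Read counts limit Sntg2 and Nos1 most among the genes tested and described, and the intervals cover the spread between libraries only.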
